A study of Homo sapiens with 3 samples.

Results

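The MuvB complex, its pocket protein and E2F partners and the transcription factor MYBL2 were followed by RNA sequencing in 5637 cells, an established human bladder cancer line, after siRNA against CDCA3. The 10 genes were chosen by name: the MuvB core genes LIN9, LIN37, LIN52, LIN54 and RBBP4, the pocket protein genes RBL1 and RBL2, the repressor E2F genes E2F4 and E2F5, and MYBL2. All 10 were among the 19225 gene symbols measured. The study set 2 libraries of siCDCA3-transfected cells (siCDCA3-1 and siCDCA3-2) against 1 library of cells given the control siRNA (siNC). All 3 libraries are labelled WT in genotype and were transfected by the same lipid protocol. Whether the siCDCA3 libraries differ by siRNA sequence or by culture is not stated, and p-values measure only the spread between them, which may be technical. The series asks which genes lie downstream of CDCA3, and its title places CDCA3 itself downstream of MYBL2.

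MuvB is a small set of proteins that stays assembled through the cell cycle and changes partners. With RBL1 or RBL2, E2F4 or E2F5 and a DP protein it forms the DREAM complex, which holds cell cycle genes silent in resting cells. In cycling cells the same core binds MYBL2 (B-MYB) and then FOXM1 and takes part in the activation of late cell cycle genes. LIN54 is the subunit that contacts DNA, at the cell cycle genes homology region (CHR), while E2F4 and E2F5 read E2F sites.

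Because these sites are the point where the complexes meet their targets, the start-site windows of CDCA3 and of 3 of the 10 genes are shown, each 300 bases long (250 before the start and 50 after it). MYBL2 and RBL1 were the members furthest below siNC in siCDCA3-1, and LIN9 was the member that differed most between libraries. The sequences are from RefSeq on GRCh38.p14 and read 5′ to 3′ on the gene's strand. The windows are chr12:6851237-6851536, minus strand, for CDCA3, chr20:43666864-43667163, plus strand, for MYBL2, chr20:37095948-37096247, minus strand, for RBL1 and chr1:226309115-226309414, minus strand, for LIN9. Capitals mark every match, on either strand, to the CHR letters TTTGAA and TTCGAA, the E2F core letters GGCGGGA or TTGGCGC or TTTCGCG, and the MYB letters CAACGG or CAACTG or TAACGG or TAACTG.
CDCA3: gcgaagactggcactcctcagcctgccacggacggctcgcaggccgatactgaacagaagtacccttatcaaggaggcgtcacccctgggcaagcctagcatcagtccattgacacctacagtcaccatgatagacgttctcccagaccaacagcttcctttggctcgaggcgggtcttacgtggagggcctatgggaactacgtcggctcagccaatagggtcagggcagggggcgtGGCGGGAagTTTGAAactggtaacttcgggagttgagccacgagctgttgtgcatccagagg
MYBL2: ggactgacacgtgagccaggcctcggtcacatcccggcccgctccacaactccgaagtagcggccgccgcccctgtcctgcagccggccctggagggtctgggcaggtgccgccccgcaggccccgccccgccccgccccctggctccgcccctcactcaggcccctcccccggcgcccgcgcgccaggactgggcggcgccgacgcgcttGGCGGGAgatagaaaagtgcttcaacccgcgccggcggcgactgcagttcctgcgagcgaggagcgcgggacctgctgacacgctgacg
RBL1: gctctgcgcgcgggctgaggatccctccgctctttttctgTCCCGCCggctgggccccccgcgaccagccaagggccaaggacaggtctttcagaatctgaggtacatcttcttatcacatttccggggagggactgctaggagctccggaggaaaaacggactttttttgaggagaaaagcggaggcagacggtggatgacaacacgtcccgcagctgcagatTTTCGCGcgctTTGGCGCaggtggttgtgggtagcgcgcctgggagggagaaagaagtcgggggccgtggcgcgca
LIN9: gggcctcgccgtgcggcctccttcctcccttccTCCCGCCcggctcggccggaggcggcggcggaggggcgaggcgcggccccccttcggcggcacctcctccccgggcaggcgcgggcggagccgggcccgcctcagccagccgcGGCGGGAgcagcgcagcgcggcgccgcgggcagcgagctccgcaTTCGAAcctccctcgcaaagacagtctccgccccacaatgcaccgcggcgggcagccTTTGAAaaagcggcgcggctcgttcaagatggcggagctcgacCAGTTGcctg

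In the CDCA3 window GGCGGGA began at position -12 and TTTGAA at position -3, counted from the start site, with 2 bases between them. That spacing, searched as GGCGGGANNTTTGAA on the gene's strand after it had been seen, occurred in 3 of 35116 windows. The CDCA3 window it was copied from is among them. No window of the members or of the G2/M target genes listed below had it. The MYBL2 window had a single match, GGCGGGA at position -39, and no CHR or MYB letters. RBL1 had 3 E2F core matches, at positions -210, -26 and -15. The LIN9 window shown, 1 of 3 listed for that gene, held TTCGAA at position -60 and TTTGAA at position -3. It also held GGCGGGA at positions -217 and -104 and CAACTG at position 41. The LIN9 windows at chr1:226309454-226309753 and chr1:226309718-226310017 had 0 matches to any of these letters. The latter covers 226309767, the outer end of the gene as listed. RefSeq windows were at hand for 9 of the 10 genes, 15 windows in all. CHR letters were in 5 of the 15 windows (of LIN9, LIN37, LIN54 and RBL2), E2F core letters in 9 and MYB letters in 1 (of LIN9), and windows of 1 gene can overlap. Over all windows the shares with a match were 16.4% for CHR, 18.6% for the E2F core and 25.7% for MYB. A match describes the letters and is not a bound site, and no binding was measured in this series.

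The libraries held 40420563 (siCDCA3-1), 62389922 (siCDCA3-2) and 50912733 (siNC) counts with each gene represented by its transcript with the most counts. Levels are RPKM, reads divided by transcript length and by a library total, as deposited. All 8 epithelial and urothelial keratin and adhesion markers looked at had an RPKM of at least 1 in every library, whereas 0 of 4 leukocyte and 0 of 3 endothelial markers did. Of 4 fibroblast markers 1 did, COL1A1, at 8.33 (siCDCA3-1), 2.26 (siCDCA3-2) and 6.96 (siNC) RPKM. The siRNA target CDCA3, measured with 108, 406 and 1303 counts in the same order, had an RPKM of 0.574 in siCDCA3-1 and 1.40 in siCDCA3-2, against 5.52 in siNC. Its level was thus 10.4% of siNC in siCDCA3-1 and 25.3% in siCDCA3-2.

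None of the 10 genes passed the test of siCDCA3 against siNC. In the quasi-likelihood test of edgeR, with p adjusted by Benjamini-Hochberg over 10153 genes (mean RPKM of at least 1), 3 genes (0.0295%) had an adjusted p under 0.05, and 0 of them were members. All 10 members entered the test. Their log2 fold changes ran from -0.28 (LIN37) to 0.37 (RBBP4), with standard errors of 0.48 to 0.65 and an adjusted p of 0.9997 for each. The number of members with an unadjusted p under 0.05 was 0 in edgeR, 0 in DESeq2 and 0 in limma. Of all 10153 genes, only 134, 155 and 121 were under 0.05 in that order, so 0 of 10 is close to the general share. The test has 1 residual degree of freedom and takes the lone siNC library to vary as the siCDCA3 libraries do, so it does not show that the members were unaltered. In bulk RNA, fewer cycling cells and less RNA per cell cannot be told apart. The test also did not call CDCA3 (log2 fold change -2.50, standard error 0.67, edgeR adjusted p = 0.9997).

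The levels of the 10 genes spanned a wide range that was kept in each library. MYBL2 stood highest, and made up 52.5% (siCDCA3-1), 59.4% (siCDCA3-2) and 62.4% (siNC) of the summed RPKM of the 10. E2F4 and RBBP4 came next, with RBBP4 above E2F4 in siCDCA3-1 and below it in siCDCA3-2 and siNC. A middle group of RBL1, RBL2, E2F5 and LIN37 lay between 2.96 and 4.79 RPKM, and their order differed from library to library. LIN54 was lowest in every library. Gene positions below are on GRCh38, with the transcript that stood for the gene. Among the 10153 genes tested, the mean level of MYBL2 was above 96.5% of genes, that of E2F4 above 77.8% and that of LIN54 above 8.3%.

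**Figure D1:**
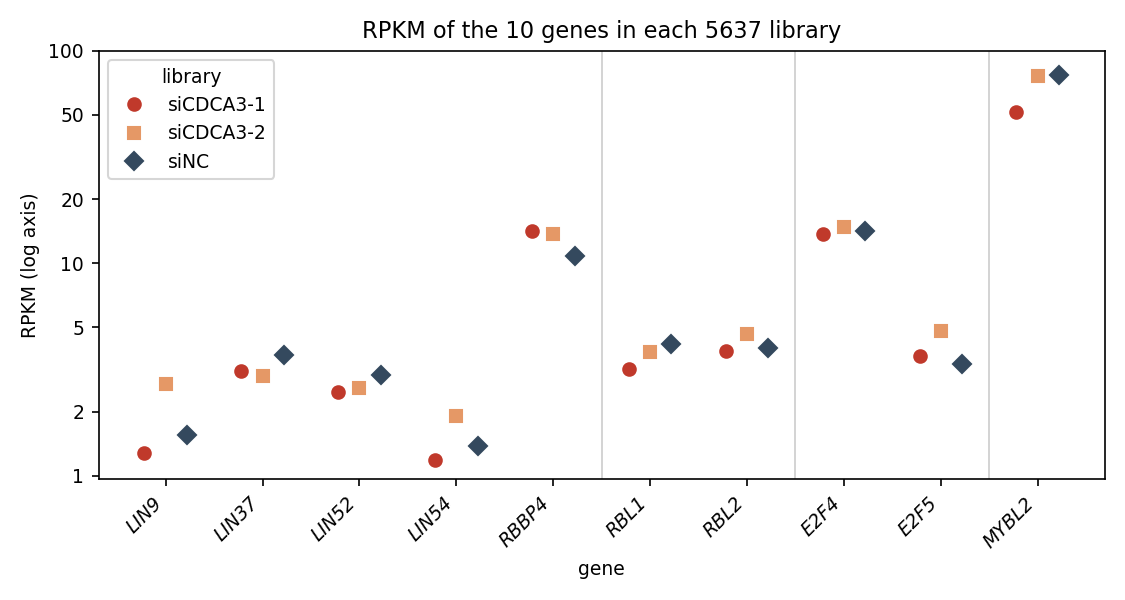
RPKM (log axis) of each of the 10 genes in siCDCA3-1 (circles), siCDCA3-2 (squares) and siNC (diamonds), 1 library each, with vertical lines between the MuvB core, pocket protein, E2F and MYBL2 groups. MYBL2 lies between 51.6 and 76.6 RPKM, and LIN54 between 1.19 and 1.91.

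Within the MuvB core, LIN9 and LIN54 stood higher in siCDCA3-2 than in the other libraries. LIN9 (NM_173083.3, chromosome 1, 226231149 to 226309767), a scaffold subunit of the core, had 1.28 RPKM in siCDCA3-1 and 2.71 in siCDCA3-2, against 1.56 in siNC. The siNC value lay between the siCDCA3 values, so the groups overlapped. LIN9 was at 82.3% of siNC in siCDCA3-1 (95% exact binomial interval 72.9% to 92.9%) and at 174% in siCDCA3-2 (159% to 191%). These intervals, and those below, cover counting error only. LIN9 in siCDCA3-2 was the only member at least 1.5-fold from siNC in either library. Of all genes tested, 12.3% were that much lower and 6.72% higher in siCDCA3-1, and 13.6% lower and 15.1% higher in siCDCA3-2. For the DNA-binding subunit LIN54 (NM_194282.3, chromosome 4, 82924603 to 83012941) the RPKM was 1.19 in siCDCA3-1 and 1.91 in siCDCA3-2, against 1.38 in siNC. Again siNC lay between the siCDCA3 libraries. The share of siNC was 86.0% in siCDCA3-1 (78.3% to 94.4%) and 138% in siCDCA3-2 (128% to 149%).

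LIN37 and LIN52, the smaller subunits, were below siNC in both siCDCA3 libraries, and these libraries were close to each other in RPKM as deposited. TMM scaling, which rescales the library totals by a trimmed mean over genes, made LIN37 less close. With it LIN37 was at 88.9% of siNC in siCDCA3-1 and 76.2% in siCDCA3-2, and LIN52 at 87.5% and 83.3%. LIN37 (NM_019104.2, chromosome 19, 35748576 to 35754519), which is needed for repression by DREAM, had 3.12 RPKM in siCDCA3-1 and 2.96 in siCDCA3-2, against 3.72 in siNC. LIN52 (NM_001024674.2, chromosome 14, 74084956 to 74201493), whose phosphorylation by DYRK1A lets the core bind a pocket protein, had 2.47 RPKM in siCDCA3-1 and 2.59 in siCDCA3-2, against 2.98 in siNC. For both genes the siNC value lay outside the range of the siCDCA3 values, and the mean was 3.04 ± 0.118 (SD, n = 2) for LIN37 and 2.53 ± 0.0868 (SD, n = 2) for LIN52 in siCDCA3 cells. The edgeR log2 fold changes were -0.28 with a standard error of 0.65 for LIN37 and -0.23 with 0.63 for LIN52, with an adjusted p of 0.9997 each. LIN37 shares 752 exonic bases with another protein-coding gene on the same strand and 1180 with an antisense gene (GENCODE v29), so part of its reads may belong to these.

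RBBP4 (NM_005610.2, chromosome 1, 32651208 to 32686211), a histone-binding WD-repeat protein shared with several chromatin complexes, was the core gene above siNC in both siCDCA3 libraries. It had 14.2 RPKM in siCDCA3-1 and 13.7 in siCDCA3-2, against 10.9 in siNC. The siCDCA3 libraries differed from each other by less than either did from siNC. The mean was 13.9 ± 0.316 RPKM (SD, n = 2) in siCDCA3 cells. RBBP4 stood at 130% of siNC in siCDCA3-1 (127% to 134%), a ratio above that of 86.5% of the genes tested, and at 126% in siCDCA3-2 (123% to 129%), above 71% of genes. It had the lowest unadjusted p among the members, 0.4768 in edgeR (log2 fold change 0.37, standard error 0.51, adjusted p = 0.9997). RefSeq names 7 RBBP4 pseudogenes, and 1706 exonic bases overlap SYNC on the other strand (GENCODE v29), so part of its reads may be shared. SYNC had 5.23 RPKM in siCDCA3-1 and 6.22 in siCDCA3-2, against 4.45 in siNC.

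The pocket proteins RBL1 (p107) and RBL2 (p130) had similar levels to each other, with RBL1 the lower of the pair in the siCDCA3 libraries. RBL1 (NM_001323282.1, chromosome 20, 36996349 to 37095997), itself an E2F target that accumulates in cycling cells, had 3.19 RPKM in siCDCA3-1 and 3.82 in siCDCA3-2, against 4.18 in siNC. Both siCDCA3 values were below siNC, at 76.4% (72.3% to 80.8%) and 91.5% (87.3% to 96.0%) of it. RBL2 (NM_005611.3, chromosome 16, 53434471 to 53491648), the pocket protein of resting cells, had 3.85 RPKM in siCDCA3-1 and 4.65 in siCDCA3-2, against 4.02 in siNC. Here siNC lay between the siCDCA3 libraries. The ratio of RBL2 to RBL1 RPKM was 1.21 in siCDCA3-1 and 1.22 in siCDCA3-2, against 0.962 in siNC. RBL2 was at 95.8% of siNC in siCDCA3-1 (90.3% to 101.7%), an interval that includes 100%. This small difference turned to 101.4% with TMM scaling. RBL2 shares 610 exonic bases with AKTIP on the other strand, and that gene had 1.66 RPKM in siCDCA3-1 and 1.34 in siCDCA3-2, against 2.41 in siNC. RBL1 shares 211 with an antisense gene.

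E2F4 had the narrowest range of the 10 genes over the 3 libraries relative to its level (highest over lowest RPKM), and E2F5 was above siNC in both siCDCA3 libraries. E2F4 (NM_001950.3, chromosome 16, 67192155 to 67198918), the main E2F of DREAM, had 13.7 RPKM in siCDCA3-1 and 14.8 in siCDCA3-2, against 14.2 in siNC. The siNC value lay inside the siCDCA3 range, and the ratio to siNC was 96.7% in siCDCA3-1 (92.2% to 101.4%) and 104% in siCDCA3-2 (100.1% to 109%), with the first turning to 102% under TMM scaling. E2F5 (NM_001951.3, chromosome 8, 85177154 to 85214518), the closely related partner, had 3.66 RPKM in siCDCA3-1 and 4.79 in siCDCA3-2, against 3.37 in siNC. It stood at 109% of siNC in siCDCA3-1 (97.8% to 121%), where the interval includes 100%, and at 142% in siCDCA3-2 (130% to 156%). Under TMM scaling, which these intervals do not use, E2F5 was at 115% in siCDCA3-1 and 136% in siCDCA3-2. E2F5 shares 969 exonic bases with C8orf59 on the other strand, and that gene had 10.7 RPKM in siCDCA3-1 and 15.9 in siCDCA3-2, against 12.3 in siNC. E2F4 exceeded E2F5 3.74-fold in siCDCA3-1 and 3.09-fold in siCDCA3-2, against 4.21-fold in siNC, in RPKM.

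MYBL2 (NM_002466.3, chromosome 20, 43667114 to 43716482) was lowest in siCDCA3-1 and close to siNC in siCDCA3-2. It had 51.6 RPKM in siCDCA3-1 and 75.9 in siCDCA3-2, against 76.6 in siNC, from 14913, 33880 and 27761 counts in that order. Its siCDCA3-1 level was 67.3% of siNC (66.0% to 68.6%), a ratio below that of all but 12.9% of the genes tested, and its siCDCA3-2 level was 99.1% (97.6% to 100.7%). Counting error is small at this depth, and the siCDCA3 mean of 63.8 ± 17.2 RPKM (SD, n = 2) carries the spread between the libraries. In edgeR its log2 fold change was -0.27 (standard error 0.51, adjusted p = 0.9997). The library with the lower CDCA3 level was also the one with the lower MYBL2 level, and with 2 siCDCA3 libraries no relation between the 2 genes can be tested.

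**Figure D2:**
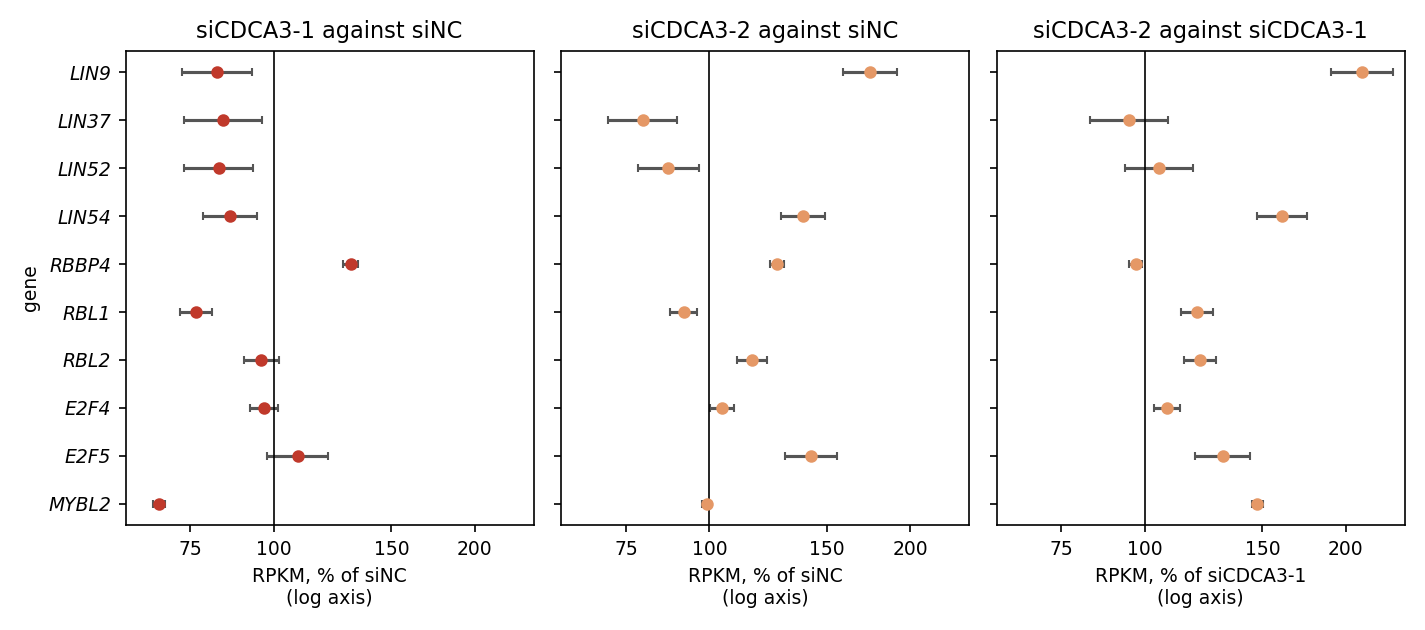
RPKM of the 10 genes as a percentage of siNC in siCDCA3-1 (left) and siCDCA3-2 (middle), and of siCDCA3-2 as a percentage of siCDCA3-1 (right), on log axes. Bars are exact 95% binomial intervals for counting error only. MYBL2 is at 67.3% of siNC in the left panel and 99.1% in the middle panel, and LIN9 is at 211% in the right panel.

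Read against all genes, the members lay within the bulk of the distribution. The siNC level lay outside the range of the siCDCA3 libraries for 6 of the 10 members, compared with 51.5% of the genes tested. Of these 6, RBBP4 and E2F5 were above siNC in both libraries (23.6% of genes), and LIN37, LIN52, RBL1 and MYBL2 were below it (27.8% of genes). Counting intervals lay below siNC for 6 members in siCDCA3-1 (49.0% of genes) and for 3 in siCDCA3-2 (39.0% of genes). They lay above siNC for 1 member in siCDCA3-1 (32.7% of genes) and for 6 in siCDCA3-2 (48.2% of genes). On log2(RPKM + 1), which understates the change of low genes, the median difference of the 10 from siNC was -0.14 in siCDCA3-1 and 0.11 in siCDCA3-2. The same medians over all 10153 genes were -0.07 and 0.05. Both comparisons use the same siNC library.

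**Figure D3:**
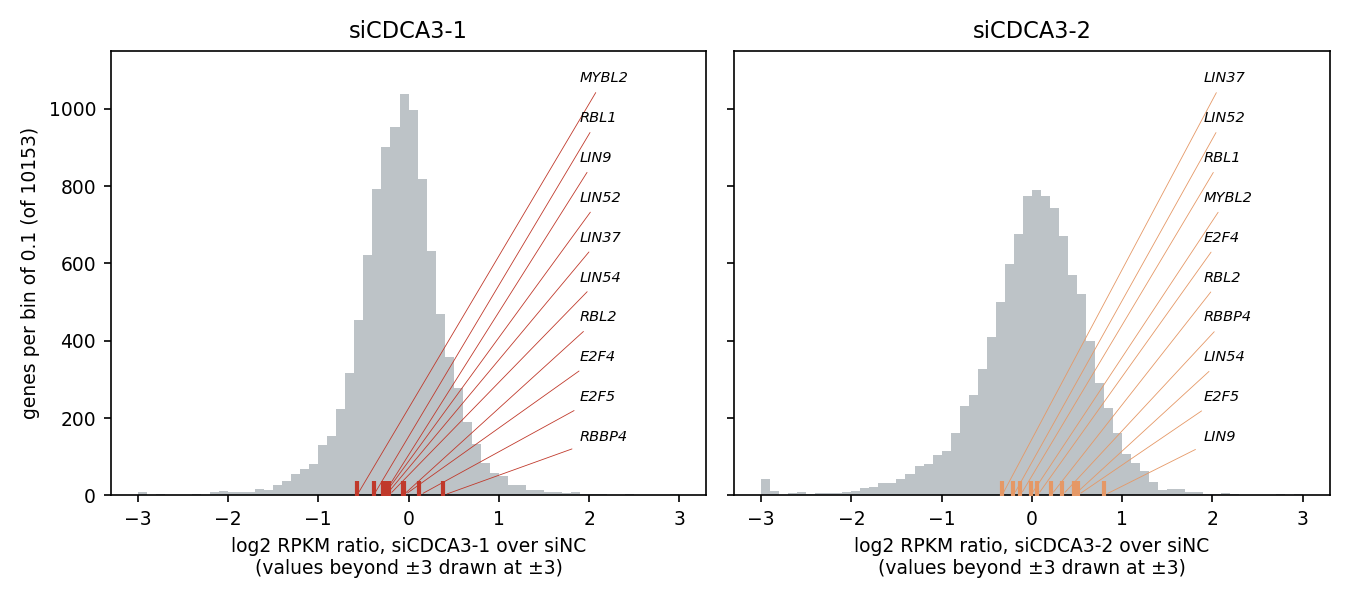
Distribution of the log2 RPKM ratio to siNC over 10153 genes in siCDCA3-1 (left) and siCDCA3-2 (right), in bins of 0.1, with the 10 genes marked by ticks at the base. The members lie inside the bulk of both distributions, with MYBL2 leftmost in siCDCA3-1 and LIN9 rightmost in siCDCA3-2.

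Set directly against each other, the siCDCA3 libraries differed more at LIN9, LIN54 and MYBL2 than at the other members. In siCDCA3-2 the RPKM was 211% of siCDCA3-1 for LIN9 (190% to 236%), 161% for LIN54 (147% to 175%) and 147% for MYBL2 (145% to 150.2%). E2F5 stood at 131%, RBL2 at 121%, RBL1 at 120% and E2F4 at 108%, and these 7 genes had intervals above 100%, as did 51.9% of the genes tested. RBBP4, at 96.9%, had its interval below 100% (36.6% of genes), while the intervals of LIN37 and LIN52 included 100%. At least 1.5-fold higher in siCDCA3-2 were 2 members, LIN9 and LIN54, compared with 23.7% of genes. With TMM scaling, which lowers these ratios, LIN54 (145.5%) no longer reached 1.5-fold, which 18.0% of genes then did. E2F4 turned to 97.8% and LIN52 to 95.2%, and LIN37 moved from 94.7% to 85.8%. The intervals given are for RPKM without TMM scaling. There is 1 library on each side, so no test was made.

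Counts were given for each RefSeq transcript, and the listed transcripts of a gene gave similar ratios. How reads shared by transcripts were counted is not stated. In siCDCA3-1 the counts summed to 97108336 over all transcripts, against 40420563 with 1 transcript per gene. Shared reads thus appear to have been counted more than once. The table held 28 transcripts of the 10 genes. The 7 genes with more than 1 transcript kept each transcript on the same side of siNC in each library. MYBL2's 2 transcripts were at 67.3% and 67.4% of siNC in siCDCA3-1, and at 99.1% and 99.4% in siCDCA3-2. RBL1's 4 transcripts ran from 76.0% to 84.8% in siCDCA3-1 and from 89.4% to 97.6% in siCDCA3-2. The RBL1 transcript with the fewest counts had 61.8% of those of the top transcript. E2F5's 3 transcripts ran from 103.3% to 112.5% in siCDCA3-1 and from 141% to 147% in siCDCA3-2. LIN9's 3 transcripts ran from 77.3% to 82.3% in siCDCA3-1 and from 174% to 179% in siCDCA3-2.

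**Figure D4:**
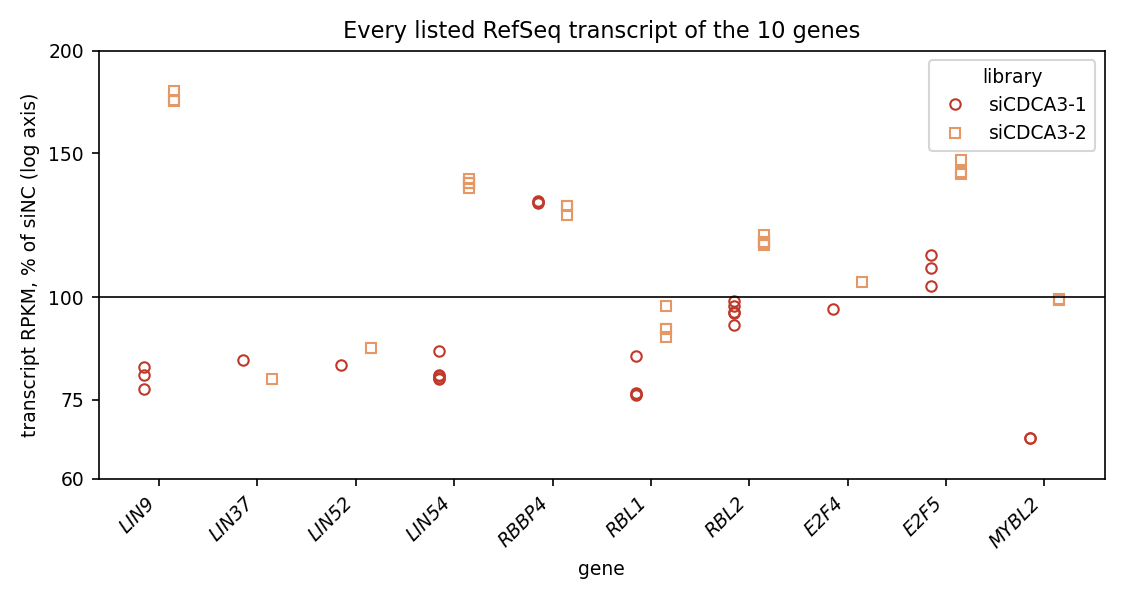
RPKM of every listed transcript of the 10 genes as a percentage of siNC (log axis) in siCDCA3-1 (circles) and siCDCA3-2 (squares). Transcripts of a gene appear to share most reads and are not replicates. Those of LIN9 stay between 77.3% and 82.3% in siCDCA3-1 and between 174% and 179% in siCDCA3-2.

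Several partner and family genes of the complexes lay further from siNC in single libraries than the members did. Of 15 genes listed, 13 passed the level filter and 0 passed the edgeR test. The DP subunits, which pair with E2F proteins to bind DNA, differed in opposite ways. TFDP1 had 24.6 RPKM in siCDCA3-1 and 74.7 in siCDCA3-2, against 47.4 in siNC. TFDP2 had 4.01 RPKM in siCDCA3-1 and 1.57 in siCDCA3-2, against 2.36 in siNC. Relative to siNC, TFDP1 was low in siCDCA3-1 and TFDP2 was low in siCDCA3-2. The third DP gene, TFDP3, had 1 count or none in each library.

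The retinoblastoma gene RB1, the third pocket protein gene, had 0.221 RPKM in siCDCA3-1 and 0.397 in siCDCA3-2, against 0.212 in siNC. These levels were well below those of RBL1 and RBL2 in every library. Of the other MYB family genes, MYB had 2.91 RPKM in siCDCA3-1 and 3.19 in siCDCA3-2, against 2.05 in siNC. MYBL1 had 0.686 and 2.37 RPKM in those siCDCA3 libraries, against 0.676 in siNC. MYBL2 was the most abundant MYB gene by RPKM in each library. RBBP7, the paralogue of RBBP4, had 48.3 RPKM in siCDCA3-1 and 58.4 in siCDCA3-2, against 51.2 in siNC. TESMIN, a paralogue of LIN54, had 0.967 and 1.08 RPKM in the siCDCA3 libraries, against 1.07 in siNC.

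FOXM1, which joins MuvB with MYBL2 late in the cycle, had 14.9 RPKM in siCDCA3-1 and 19.7 in siCDCA3-2, against 18.7 in siNC. Like MYBL2 it was lowest in siCDCA3-1. Among the other E2F genes, the activator E2F3 was the most abundant by RPKM, at 37.8 in siCDCA3-1 and 52.6 in siCDCA3-2, against 32.9 in siNC. E2F1 had 10.9 and 11.7 RPKM in the siCDCA3 libraries, against 10.3 in siNC. The atypical repressor E2F7 had 2.82 RPKM in siCDCA3-1 and 7.39 in siCDCA3-2, against 5.20 in siNC. E2F8, its partner, had 1.84 and 3.86 RPKM in the siCDCA3 libraries, against 2.47 in siNC. E2F2 had 1.06 and 0.899, against 1.07 in siNC, and E2F6 had 1.73 and 2.68, against 2.13 in siNC.

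Of 21 kinases, cyclins and inhibitors that act on the complexes, 20 passed the level filter and 0 passed the edgeR test. At least 1.5-fold lower than siNC were 4 of the 20 in siCDCA3-1 (12.3% of all genes tested) and 4 in siCDCA3-2 (13.6% of genes). At least 1.5-fold higher were 2 in siCDCA3-1 (6.72% of genes) and 8 in siCDCA3-2 (15.1% of genes). The cyclin D1 gene CCND1, whose kinase phosphorylates the pocket proteins, had 2.34 RPKM in siCDCA3-1 and 33.6 in siCDCA3-2, against 6.12 in siNC. CCNE1, encoding cyclin E1, had 6.94 and 11.9 RPKM in the siCDCA3 libraries, against 6.61 in siNC. The CDK inhibitor gene CDKN1A was close to siNC, with 42.5 RPKM in siCDCA3-1 and 53.2 in siCDCA3-2, against 49.6 in siNC. It was picked for its mean difference, -0.061 on log2(RPKM + 1), after leaving out those averaging under 5 RPKM. Some of the genes left out lay further below siNC by this measure. Among the 8 corepressor genes, 0 were 1.5-fold away from siNC in either library. HDAC1, a histone deacetylase, had 39.0 and 40.2 RPKM in the siCDCA3 libraries, against 34.7 in siNC, HDAC2 had 17.7 and 18.9, against 16.6 in siNC, SIN3A had 7.21 and 6.78, against 7.59 in siNC, and SUDS3 had 5.41 and 4.65, against 6.05 in siNC.

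Target genes of the complexes were listed in 2 groups, and 0 of 29 G1/S and 0 of 38 G2/M target genes passed the edgeR test. The G1/S list, where E2F sites prevail, had a median log2(RPKM + 1) difference from siNC of -0.14 in siCDCA3-1 and 0.04 in siCDCA3-2, and the second turned to -0.02 with TMM scaling. The genes named from both lists are extremes, with the highest or lowest mean difference among those with a mean RPKM of at least 5. Highest here were UHRF1 (22.2 and 21.9 RPKM, against 14.0 in siNC) and FEN1 (25.0 and 36.4, against 22.0 in siNC). Lowest were RFC4 (6.81 and 8.78, against 12.7 in siNC) and MCM6 (10.7 and 4.50, against 12.2 in siNC). For the G2/M list, where MYBL2, FOXM1 and CHR sites act, the medians were -0.35 and 0.28. In this list 33 genes were below siNC in siCDCA3-1 (5949 of the 10153 genes tested). In siCDCA3-2, 32 were above siNC (5523 of the genes tested). The highest genes by mean difference were ANLN (20.2 and 36.5 RPKM, against 15.2 in siNC) and MKI67 (12.4 and 16.3, against 11.1 in siNC). The lowest were PTTG1 (19.7 and 40.3, against 38.3 in siNC) and CDC25B (61.5 and 31.9, against 67.1 in siNC). Of the 38, 26 were at least 1.5-fold higher in siCDCA3-2 than in siCDCA3-1, compared with 23.7% of genes, and MYBL2 itself was 1.47-fold higher. With TMM scaling 15 of the 38 reached 1.5-fold, compared with 18.0% of genes. With 1 library on each side this difference has no replicate check.

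**Figure D5:**
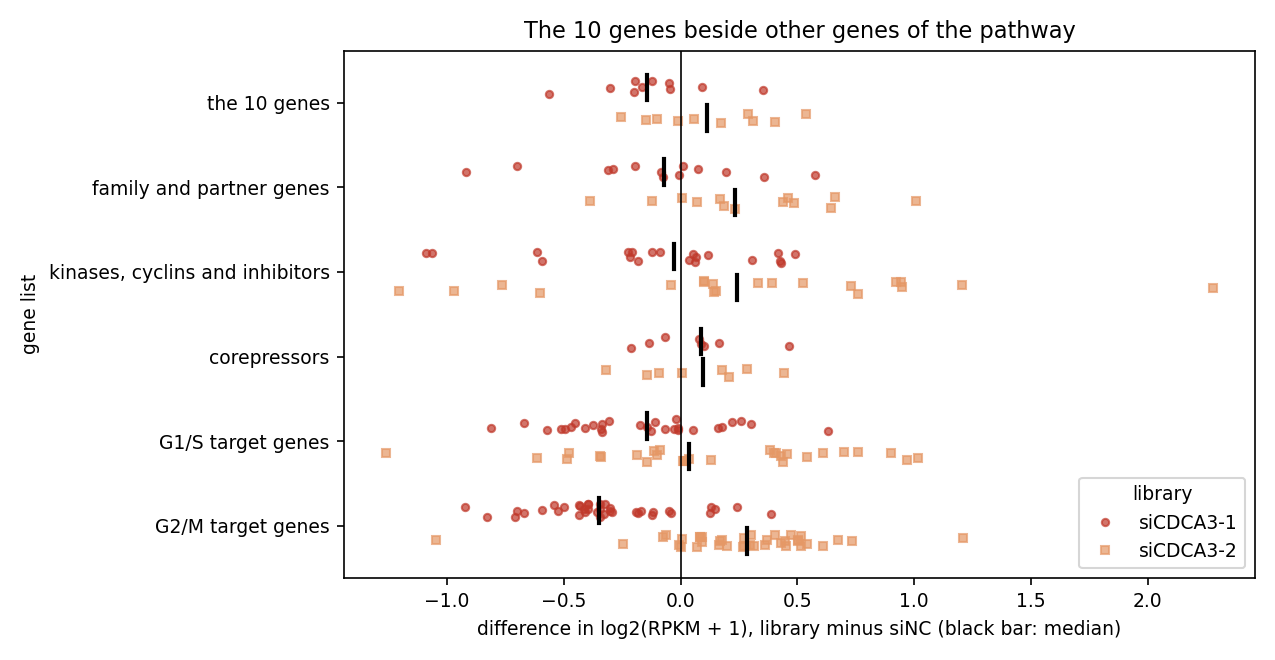
Difference from siNC in log2(RPKM + 1) for the 10 genes and for the tested genes of 5 other lists, in siCDCA3-1 (circles) and siCDCA3-2 (squares), with 1 point per gene and a black bar at each list's median. The G2/M target genes have the medians furthest apart, -0.35 and 0.28, and the 10 genes lie at -0.14 and 0.11.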

How the data were processed

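RNA was sequenced in 3 libraries of 5637 cells. The submitters' processing notes name Trimmomatic 0.36, FastQC, HISAT2 and HTSeq, and human and mouse builds are listed without a role. Strand settings are not given in the sources used here. The deposited count is a whole number of reads per RefSeq transcript, per the file headers. The RPKM was made by the authors from that count, the transcript length and totals, recovered here, of 104153360 (siCDCA3-1), 160640877 (siCDCA3-2) and 130459616 (siNC). The transcript with the highest summed count stood for each gene, and date-like symbols were restored from accessions in 102 of 103 rows. A mean RPKM of at least 1 was required, and the genes were tested with edgeR 4.0.16 in R 4.3.3 (TMM, quasi-likelihood, two-sided, Benjamini-Hochberg). The code was run on simulated counts with less spread than these data (common dispersion 0.1259) and larger changes than any member showed. That run cannot show how the test performs at the spread of these data. DESeq2 1.42.0, limma 3.58.1 on log2(RPKM + 1), other scalings, filters, pseudocounts and transcripts were alternatives. Each standard error is the size of the log2 fold change divided by the square root of its F statistic. Intervals on RPKM ratios are exact (Clopper-Pearson) from counts. Gene coordinates and promoters come from RefSeq GRCh38.p14, with 98.6% of accessions matched. The members and lists were chosen with earlier results of these data known. Named are the members, CDCA3, the family and partner genes, and in each other list the 2 genes with the highest and the 2 with the lowest mean difference among those with a mean RPKM of at least 5, except that the values of 1 such gene are not reported here.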

Additional observations from a re-analysis of the deposited data

How the results depend on the processing

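The number of genes called was 3 in edgeR, and 10 with DESeq2, 0 with limma on log2(RPKM + 1) (121 genes with an unadjusted p under 0.05), 22 without a filter and 0 at a mean RPKM of at least 5 (74 genes with an unadjusted p under 0.05). No member was called under any of these, under median-of-ratios scaling or with the longest transcript, although the filter at 5 leaves only RBBP4, E2F4 and MYBL2 in the test. E2F4 turned to a log2 fold change of -0.042 without a filter. With 1 siCDCA3 library left there is no test. The log2 fold change without siCDCA3-1 and without siCDCA3-2 was 0.74 and -0.20 for LIN9 and 0.40 and -0.14 for LIN54, so the siCDCA3-2 library sets the sign of both. The median log2 difference of the 10 genes from siNC kept its sign in each siCDCA3 library under every pseudocount, scaling and transcript choice, but its size moved. In siCDCA3-1 it was -0.14, against -0.22 with a pseudocount of 0.1 and -0.098 with TMM scaling. In siCDCA3-2 it was 0.11, against 0.062 with TMM and 0.071 with median-of-ratios scaling. TMM scaling also moved 1.5-fold counts in lists. The kinases, cyclins and inhibitors higher in siCDCA3-1 than in siNC became 4 instead of 2, and the corepressors 1 instead of 0. Over all 10153 genes tested the same count also rose, to 917 instead of 682. The TMM counts for the lists were added after seeing the data. No paired analysis was possible because siNC is a single library and its label carries no replicate number. Depth limits LIN37 and LIN9 most, with 374 and 446 counts in siCDCA3-1. All differences rest on 1 siNC library.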
